A study of Mus musculus with 3 samples.

Results

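Mitochondrial ribosomal protein genes, taken as every gene symbol made of Mrpl or Mrps and a number, came to 77 of the 24421 gene symbols counted in bone marrow cells of the mouse sorted as hematopoietic stem and progenitor cells (HSPCs). By symbol, 48 were named for the large subunit (Mrpl) and 29 for the small subunit (Mrps). The RNA came from 3 control libraries of C57BL/6 mice, the strain given for every sample, with the genotype label Cicflox/flox and tamoxifen. Both alleles of Capicua (Cic), a transcriptional repressor, are thus labelled as floxed in these controls, and all 3 received tamoxifen. The labels used here name no Cre driver for these libraries and do not say whether each came from its own animal or from a pool, so the spread between libraries may be technical. The cells were sorted as negative for lineage markers and positive for c-Kit and Sca-1. The other mouse group of the series was not analysed here, so the values are a baseline with no contrast between genotypes.

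The mitochondrial ribosome translates the few messenger RNAs of the mitochondrial genome, whose products are core subunits of the respiratory chain and of ATP synthase. Its ribosomal RNAs are made in the mitochondrion, but all of its proteins are encoded in the nucleus, made on cytosolic ribosomes and imported. The small subunit binds and decodes the messenger RNA, and the large subunit forms peptide bonds and releases the chain through an exit tunnel that faces the inner membrane. Blood stem cells at rest are known for low mitochondrial activity, which increases as they differentiate.

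The libraries, numbered 1 to 3 as in their titles, held 30718562, 25097769 and 30032593 gene counts. Counts were divided by these totals and given as CPM, the count that a library of 1000000 gene counts would hold, so 3 counts, used as the detection floor, stood for 0.0977, 0.120 and 0.0999 CPM. The cells carried the transcripts of the sort, with Kit at 826 ± 71.0 CPM and the Sca-1 gene Ly6a at 103 ± 9.50 CPM (SD, n = 3 libraries). T cell markers summed to 0.260, 0.518 and 0.499 CPM in libraries 1, 2 and 3, and the haemoglobin genes Hbb-bt and Hba-a1 were listed at 0. The 3 neutrophil markers S100a8, S100a9 and Ngp, all with counts, summed to 135 CPM in library 1, 30.6 CPM in library 2 and 73.0 CPM in library 3. The ribosomal RNA precursor Rn45s took 11.8% of gene counts in library 1, 8.20% in library 2 and 7.91% in library 3.

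All 77 mitochondrial ribosomal protein genes were expressed. Every one had a mean of at least 1 CPM, 72 had at least 10 CPM (46 of the 48 large and 26 of the 29 small subunit genes) and 8 had at least 50 CPM (5 large and 3 small). Single counts ran between 129 and 2642 per gene and library, far above the floor. Of all 24421 symbols, 12965 averaged at least 1 CPM, of which 9259 had at least 10 CPM and 4321 at least 50 CPM. Ranked by CPM, 62 of the 77 members stood above the median of all genes with any count. Against the 12965 genes the median member was lower, at 21.6 CPM beside 25.9 CPM. The spread among the members was moderate, with a 17.5-fold ratio between the highest and the lowest mean CPM. The 10 highest members held 28.5% of the summed CPM of all 77. The members were scattered over 17 chromosomes, with up to 10 on 1 chromosome, chromosome 11, and 8 on chromosome 17.

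In library 1, 54619 counts fell on the 77 genes, which was 0.178% of its gene counts (95% exact Clopper-Pearson interval 0.176 to 0.179%). The share was 0.202% (0.201 to 0.204%) in library 2 and 0.216% (0.214 to 0.218%) in library 3. These intervals do not overlap, but they cover counting error only, since amplified reads are not independent molecules. The mean was 0.199 ± 0.0193% (SD, n = 3). Large subunit genes took 0.133 ± 0.0146% and small subunit genes 0.0657 ± 0.00478% of gene counts, a ratio of 2.02 ± 0.0762, with more genes on the large side.

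Levels of different genes were compared per kilobase, because long transcripts yield more fragments. With the union of a gene's annotated exons as its length, the members ranged 26.4-fold in mean CPM per kilobase. Of the 77, 53 stood above 6.42 CPM per kilobase, the median of the 12965 genes that averaged 1 CPM or more, which are the genes tested below. That was true of 37 of 48 large subunit genes and 16 of 29 small subunit genes. The exon unions of the members were short, with a median of 2255 bp against 4390.5 bp over the tested genes.

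**Figure D1:**
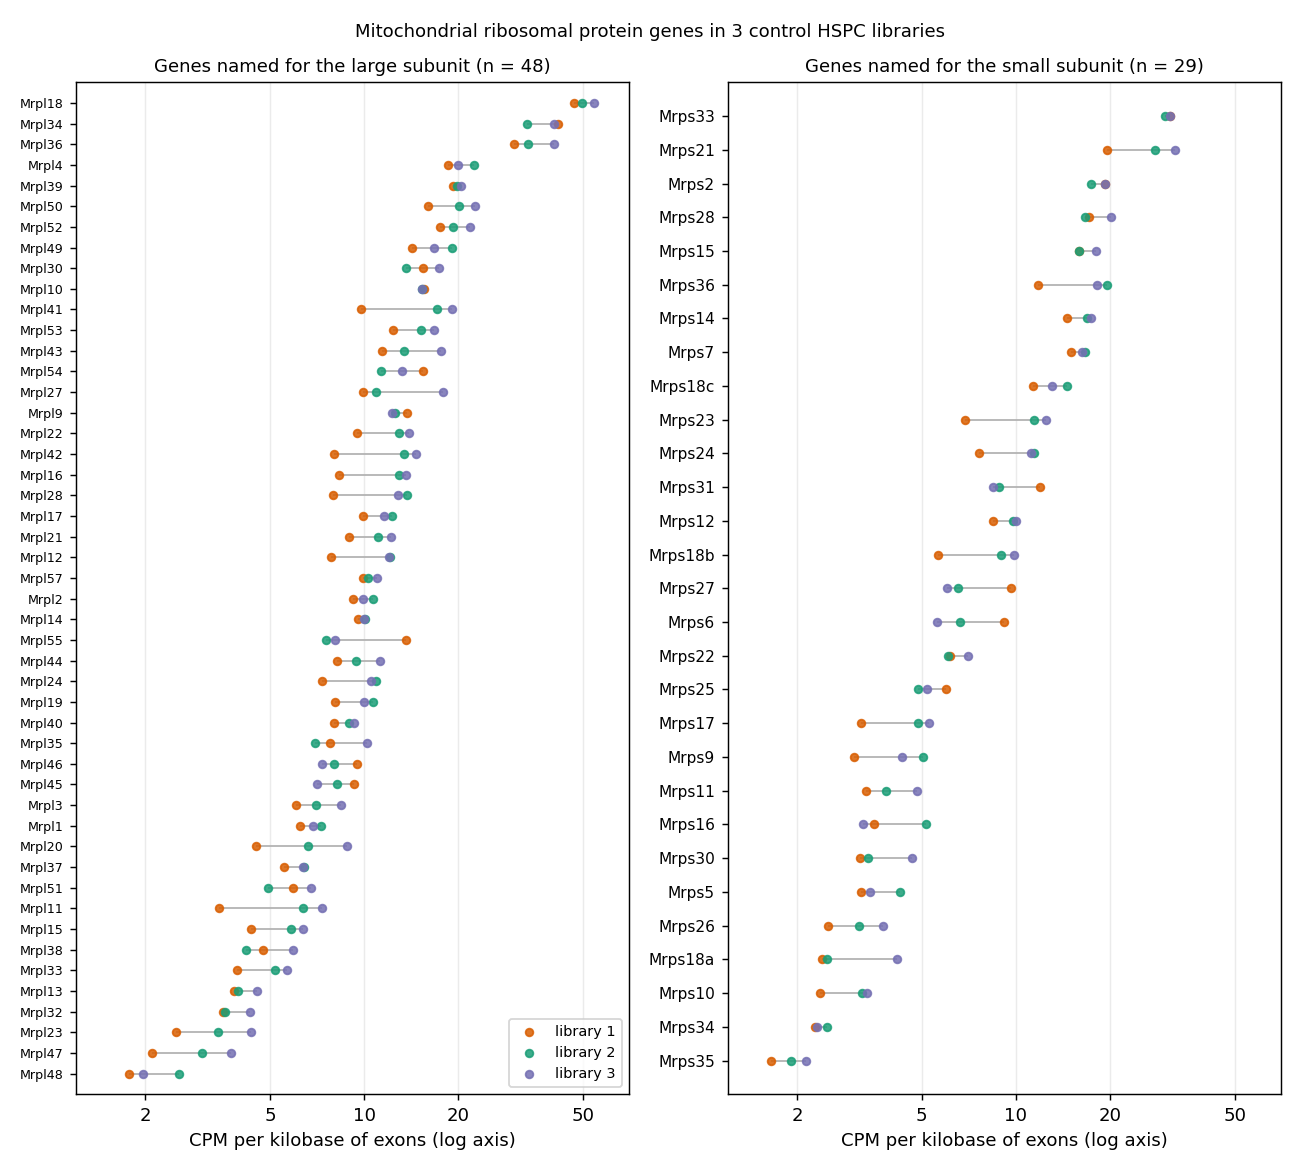
CPM per kilobase of exons (log axis) of the 48 large subunit genes (left) and the 29 small subunit genes (right), each gene as 3 points for libraries 1 to 3 joined by a line and sorted by the mean. Mrpl18 at a mean of 50.1 and Mrps33 at 30.7 CPM per kilobase lead their subunits, and for most genes the point of library 1 lies to the left.

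On CPM and on CPM per kilobase of exon union, the large subunit median was above the small subunit median in each library, by an amount that depended on the scale. On CPM, the median large subunit gene had 21.7, 21.3 and 24.4 CPM in libraries 1, 2 and 3, against 15.0, 20.6 and 22.5 CPM for the median small subunit gene. The log2 difference was 0.51 in library 1, 0.05 in library 2 and 0.11 in library 3, with a mean of 0.22 ± 0.25 (SD, n = 3), so on this scale it was no larger than its spread between libraries. Per kilobase of exon union, the median large subunit gene had 9.07, 10.8 and 11.1 CPM per kilobase in libraries 1, 2 and 3, against 6.89, 6.63 and 7.01 CPM per kilobase for the median small subunit gene. The log2 difference was 0.37, 0.67 and 0.63 in these libraries, with a mean of 0.56 ± 0.16, above 0 in 3 of 3 libraries and larger than its SD. No p-value is given for this difference, because it is a score over chosen genes, and with 3 libraries a two-sided exact sign-flip test cannot go below 0.25.

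The difference per kilobase rested on which length was used. When the length was the longest annotated coding transcript, the large subunit median was 12.6, 15.0 and 17.7 CPM per kilobase in libraries 1, 2 and 3, against 11.3, 16.6 and 17.1 CPM per kilobase for the small subunit. Its log2 difference was 0.16 and 0.05 in libraries 1 and 3 and -0.14 in library 2, with a mean of 0.02 ± 0.15. With coding length alone the difference was again above 0 in every library, with medians of 32.5, 36.5 and 41.1 CPM per kilobase for the large subunit, against 24.1, 27.1 and 27.4 CPM per kilobase for the small subunit, and a mean log2 difference of 0.47 ± 0.09. The median exon union was 2394 bp in large and 2172 bp in small subunit genes, the median coding transcript 1327.5 bp and 1197 bp, and the median coding length 570 bp and 588 bp. A higher level of large subunit genes was thus seen under 2 of 3 lengths and not under the other.

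**Figure D2:**
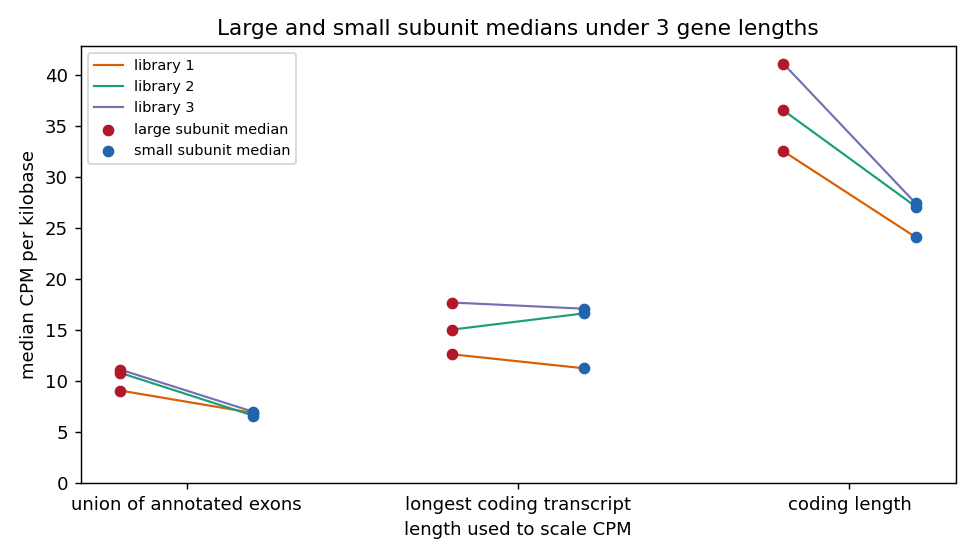
Median CPM per kilobase of the large subunit genes (red, left of each pair) and the small subunit genes (blue, right), with 1 line per library, under 3 definitions of gene length. The lines fall to the right under the exon union and the coding length, while under the longest coding transcript library 2 goes the other way, with 15.0 for the large and 16.6 for the small subunit.

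Symbols do not always match the place of a protein. Mrps18a and Mrps30 carry small subunit symbols, but structures of the mammalian mitochondrial ribosome place both proteins in the large subunit, and Mrps36 is now known as a component of the alpha-ketoglutarate dehydrogenase complex. Mrps18a was at 8.86 CPM in library 1, 9.20 CPM in library 2 and 15.3 CPM in library 3. Mrps30 was at 21.3, 22.5 and 31.1 CPM in the same libraries. In both genes library 3 stood above the other two, and per kilobase both were low, at 3.02 ± 0.990 and 3.74 ± 0.804 CPM per kilobase. Mrps36 was at 15.0, 24.8 and 23.1 CPM in libraries 1, 2 and 3, with library 1 the low one, and at 16.5 ± 4.13 CPM per kilobase. Counting Mrps18a and Mrps30 with the large subunit and leaving Mrps36 out lowered the mean log2 difference per kilobase to 0.38, against 0.56 by symbol.

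Among large subunit genes, the highest by CPM was Mrpl17 (ENSMUSG00000030879.10, chr7:105803206-105811099, minus strand, GRCm38), whose product, like its bacterial counterpart, lies near the exit tunnel. Mrpl17 had 75.5, 93.1 and 88.0 CPM in libraries 1, 2 and 3. Its exon union of 7605 bp is long for this family, and per kilobase it was only 11.2 ± 1.19. Mrpl18 (chr17:12911349-12916345, minus strand), a protein of the central protuberance, had 65.3, 69.3 and 75.5 CPM, with little spread, and was first per kilobase at 50.1 ± 3.68. Mrpl34 and Mrpl36, small proteins with bacterial counterparts, followed per kilobase at 38.4 ± 4.57 and 34.6 ± 5.26.

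The next in CPM were Mrpl4 at 48.4, 58.8 and 52.3 CPM in libraries 1, 2 and 3, Mrpl19 at 43.8, 58.3 and 54.4 CPM, and Mrpl39 at 48.7, 50.2 and 51.4 CPM. Mrpl4 and Mrpl19 have bacterial counterparts, and Mrpl39 is specific to mitochondria and resembles a threonyl-tRNA synthetase. Mrpl39 was nearly level over the libraries. Of the exon union of Mrpl19, 36.0% overlaps other genes, so part of its counts is uncertain.

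The lowest large subunit genes were Mrpl14, which binds at the face towards the small subunit, at 9.08, 9.52 and 9.49 CPM in libraries 1, 2 and 3, followed by Mrpl55 and Mrpl54. Mrpl55, of the central protuberance, was at 14.0 CPM in library 1, above the 7.73 CPM in library 2 and 8.29 CPM in library 3. Mrpl54 was at 12.7, 9.32 and 10.9 CPM, also with library 1 the highest. None of these was low per kilobase, since their transcripts are short, and Mrpl14 had 9.87 ± 0.258 CPM per kilobase. The lowest of the subunit per kilobase was Mrpl48 at 2.10 ± 0.408, with an exon union of 8152 bp.

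The stalk of the large subunit, which recruits the GTP-binding translation factors, is formed by the proteins of Mrpl10, Mrpl11 and Mrpl12. Mrpl10 had 26.4, 26.2 and 26.1 CPM in libraries 1, 2 and 3, the steadiest of all 77 genes with a coefficient of variation (CV, SD over mean) of 0.611%. Mrpl11 (chr19:4962147-4966999, plus strand) had 11.1, 20.6 and 23.6 CPM in these libraries, the least steady with a CV of 35.6%. Mrpl12 had 12.0, 18.5 and 18.4 CPM. Library 1 was thus low for Mrpl11 and Mrpl12 and not for Mrpl10, although the 3 proteins work in 1 structure.

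Per kilobase of exon union, the 8 genes listed for the central protuberance had a median of 9.23 CPM per kilobase, and the 6 genes listed for the rim of the exit tunnel 8.88. On CPM this order was reversed, with medians of 14.0 and 19.0 CPM. By origin, the 30 large subunit genes shared with bacteria had a median of 9.90 CPM per kilobase and the 18 specific to mitochondria 11.2. This order too was reversed on CPM, with medians of 24.8 and 21.4 CPM. In the small subunit the 16 shared genes had a median of 9.76 and the 10 specific ones 6.91, and on CPM 21.7 and 16.7. Mrps18b is listed among the specific genes, although it is a paralog of a bacterial protein. The classes overlapped, with single genes between 2.98 and 26.5 CPM per kilobase among the shared and between 1.90 and 30.7 among the specific small subunit genes.

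Among small subunit genes, the highest by CPM was Mrps2 (ENSMUSG00000035772.11, chr2:28468066-28471178, plus strand), with a bacterial counterpart, at 56.3, 50.6 and 56.3 CPM in libraries 1, 2 and 3. Mrps14, a protein of the head of the subunit, followed at 47.4, 55.0 and 56.8 CPM. Mrps33, which is specific to mitochondria, was at 52.0, 49.8 and 51.6 CPM. Mrps33 was also first per kilobase, at 30.7 ± 0.711, before Mrps21 at 26.5 ± 6.43 and Mrps2 at 18.6 ± 1.13. Mrps25 had 39.4, 31.9 and 34.2 CPM, but 69.8% of its exon union overlaps Nr2c2 on the other strand, and reads of such pairs could not be told apart here. Mrps7, a protein of the head, had 31.1, 34.4 and 33.8 CPM.

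The lowest of all 77 was Mrps34, specific to mitochondria and needed for a stable small subunit, at 4.72, 5.14 and 4.80 CPM in libraries 1, 2 and 3. Its level is uncertain, because 77.8% of its exon union overlaps Mapk8ip3 and Nme3. Mrps11 of the platform had 7.23, 8.33 and 10.5 CPM, and Mrps12, whose product lies at the decoding centre, had 8.79, 10.2 and 10.4 CPM. Mrps12 and Mrps34 varied little, while Mrps11 was lowest in library 1 and highest in library 3. The lowest of the family per kilobase was Mrps35 at 1.90 ± 0.241, with an exon union of 8631 bp.

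Mrps18a, Mrps18b and Mrps18c are 3 paralogs of 1 bacterial protein, and a mitochondrial ribosome holds 1 copy of each at a different site. Mrps18b had 11.8, 18.7 and 20.6 CPM in libraries 1, 2 and 3, and Mrps18c had 12.2, 15.7 and 14.0 CPM. Per kilobase of exon union the order of the means was Mrps18c at 13.0 ± 1.62, Mrps18b at 8.16 ± 2.22 and Mrps18a at 3.02 ± 0.990. The libraries of the 3 genes did not overlap on this scale, but this rested on exon unions of 1076, 2089 and 3690 bp. Per kilobase of the longest coding transcript, the values lay between 14.8 and 19.1 for Mrps18c and between 11.0 and 19.1 for Mrps18b. Those of Mrps18a lay between 10.0 and 17.4, so all 3 overlapped. Per kilobase of coding length, Mrps18c lay between 28.4 and 36.5, above every library of the other paralogs. Mrps18b, between 15.5 and 27.1, and Mrps18a, between 15.1 and 26.1, overlapped on that scale. Library 1 was the lowest for all 3 paralogs, but library 3 was the highest for Mrps18a and Mrps18b only. Of the exon unions of Mrps18b and Mrps18c, 30.5% and 23.2% overlap other genes.

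To ask which differences between libraries went beyond counting noise, the counts of each gene were set against the library totals by a chi-square test with Benjamini-Hochberg adjustment over the 12965 tested genes. Of the 77 members, 67 (87.0%) passed an adjusted p of 0.05, beside 82.6% of all tested genes, so this share is close to the background. The 67 were 42 of 48 large and 25 of 29 small subunit genes. The 10 that did not pass were the large subunit genes Mrpl2, Mrpl10, Mrpl14, Mrpl39, Mrpl40 and Mrpl57 and the small subunit genes Mrps7, Mrps12, Mrps33 and Mrps34. Passing depends on the number of counts as well as on the spread. Mrpl2, with 330, 314 and 349 counts in libraries 1, 2 and 3 and a CV of 7.61%, did not pass. Mrpl18, with 2006, 1740 and 2268 counts and a CV of 7.35%, did.

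Beyond the spread usual for genes of their abundance, 0 of 77 members passed edgeR's quasi-likelihood test of variability at an adjusted p of 0.05, beside 0.00771% of all tested genes, which is 1 gene. At an unadjusted p of 0.05, 2 members passed (2.60%), Mrpl11 and Mrpl42, beside 4.54% of all tested genes. The smallest adjusted p of a member in this edgeR test was 0.98. Since only 1 of all tested genes passed with 3 libraries, 0 of 77 says little about how steady the members are. The CV of the members ran between 0.611 and 35.6% with a median of 15.6%, against a median of 13.2% over all tested genes. A CV under 10% was found for 20 members, 12 of the large and 8 of the small subunit.

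The widest ranges in the large subunit were those of Mrpl11, with a log2 range of 1.06 on log2(CPM + 0.5), Mrpl41 with 0.93 and Mrpl20 with 0.92. Mrpl41, specific to mitochondria, had 8.66, 15.1 and 16.9 CPM in libraries 1, 2 and 3, and Mrpl20, shared with bacteria, had 7.49, 11.0 and 14.6 CPM. Both were lowest in library 1 and highest in library 3, as was Mrpl42 at 29.6, 49.2 and 53.7 CPM. In the small subunit the widest were Mrps23 with 0.82, at 10.7, 17.8 and 19.4 CPM, Mrps18b with 0.78 and Mrps18a with 0.76. In all of these, library 1 was the lowest. Mrpl11 was the only member over 2-fold between libraries (1 of 77), beside 8.7% of all tested genes.

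Small as they were, the differences ran one way across most of the family. Of the 77 members, 56 (72.7%) had their lowest CPM in library 1, beside 44.3% of all tested genes, and 44 (57.1%) had their highest in library 3, beside 32.5%. By subunit, 37 of 48 large and 19 of 29 small subunit genes were lowest in library 1, and 29 large and 15 small subunit genes were highest in library 3. Both held for 37 members, 25 large and 12 small, beside 22.8% of all tested genes. The median ratio of library 3 to library 1 over the members was 1.22, with 63 of 77 higher in library 3, against a median ratio of 1.02 over all tested genes, of which 54.0% were higher in library 3. In bulk RNA such a difference cannot be divided among another mix of cells, another share of these transcripts per cell and a technical difference between libraries.

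On the log2 scale, the median member of library 1 stood at -0.26 relative to the mean of the other two libraries, against -0.05 for the median tested gene. In library 2 the median was 0.05, against 0.05 over all tested genes, and in library 3 it was 0.24, against 0.00. The medians of both subunits had the same signs, -0.27, 0.05 and 0.26 for the large subunit in libraries 1, 2 and 3, and -0.25, 0.08 and 0.18 for the small subunit. Library 1 also had the highest Rn45s share, and with Rn45s left out of the totals its members' median was -0.20, against 0.01 for the median tested gene. Library 1 had the highest summed neutrophil markers too, and their part in the lower level of the members was not tested.

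**Figure D3:**
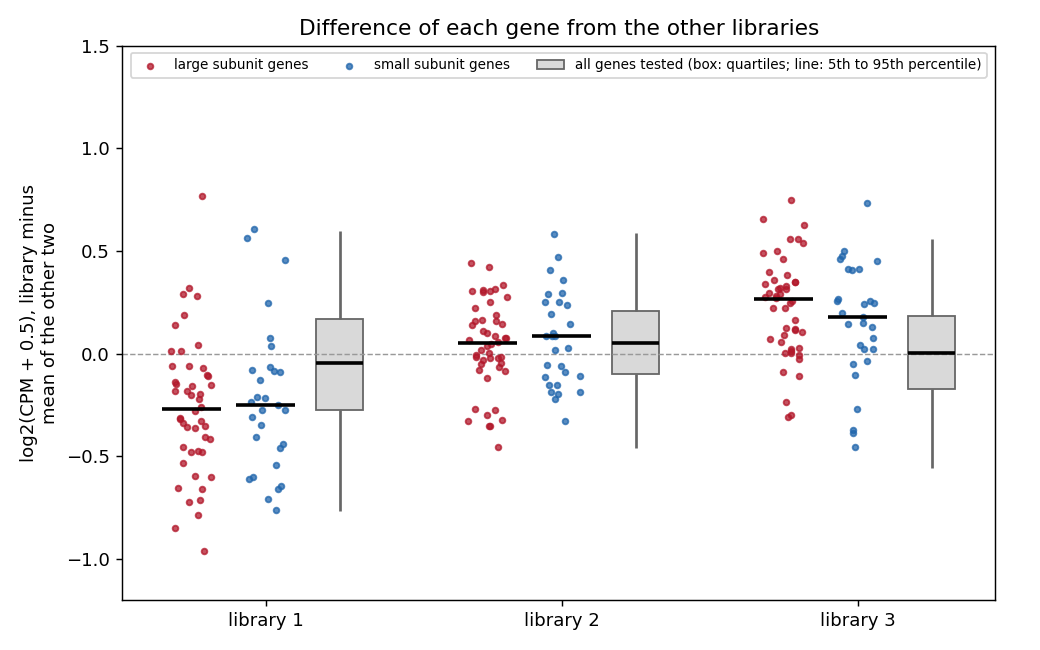
Difference of each gene in 1 library from the mean of the other two, on log2(CPM + 0.5), for large subunit genes (red), small subunit genes (blue) and all tested genes (grey box). Black bars are medians, at -0.27 and -0.25 in library 1 for the large and the small subunit and at -0.05 for all tested genes, and above 0 for both subunits in library 3.

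The members were also set beside genes of like length. Tested genes were divided by exon union into short genes, of up to 3271 bp with 51 members, a middle class, of up to 5817 bp with 14 members, and long genes with 12 members. In library 1 the members' median log2 difference was -0.22, -0.28 and -0.32 in the short, middle and long class, against -0.10, -0.05 and -0.01 for all genes of the class. In library 3 it was 0.18, 0.29 and 0.26, against 0.06, 0.00 and -0.04. The short class, which holds most of the members, thus stood below 0 in library 1 as a whole, with the members' median further below.

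Some members went against the family. In 13 of 77 (16.9%) the highest CPM was in library 1, beside 31.9% of all tested genes, among them Mrpl9, Mrpl45, Mrpl46 and Mrpl55 of the large subunit and Mrps6, Mrps27 and Mrps31 of the small subunit. Mrps27 had 20.2, 13.7 and 12.6 CPM in libraries 1, 2 and 3, Mrps6 had 14.1, 10.2 and 8.59 CPM, and Mrps31 had 39.2, 29.0 and 27.9 CPM. In each of these genes library 1 stood above the other two. Of the exon unions of Mrps27 and Mrps6, 24.2% and 19.9% overlap other genes, so part of their counts is uncertain, while that of Mrps31 has no overlap. Mrpl45, whose protein ties the exit tunnel to the inner membrane, had 24.1, 21.3 and 18.3 CPM.

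Many members start head to head with another gene. A protein-coding gene that starts on the opposite strand within 1000 bp was found for 33 of 77 members (42.9%), against 1997 of the 12148 protein-coding genes tested (16.4%). This held for 24 of 48 large subunit genes (50.0%) and 9 of 29 small subunit genes (31.0%), and for 12 of the 18 large subunit genes specific to mitochondria. Of the 31 partners with a count under the annotated symbol, 30 had a mean of at least 1 CPM, beside 12965 of all 24421 symbols. The partners include Mrpl46 and Mrps11, which are themselves members. The share among the head-to-head partners of other genes was not computed. Some partners also serve mitochondria or protein synthesis. Mrpl36 lies beside Ndufs6 and Mrpl47 beside Ndufb5, both subunits of respiratory complex I, Mrps12 beside the mitochondrial seryl-tRNA synthetase gene Sars2, and Mrpl49 beside Fau, a precursor of a cytosolic ribosomal protein.

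In 1 case both genes of a pair are members. Mrpl46 (chr7:78775236-78783531, minus strand) and Mrps11 (chr7:78783119-78792989, plus strand), 1 gene for each subunit, overlap at their starts in the GENCODE annotation. Mrpl46 had 13.4, 11.4 and 10.4 CPM in libraries 1, 2 and 3, while Mrps11 had 7.23, 8.33 and 10.5 CPM. Mrpl46 was highest in library 1 and lowest in library 3, and Mrps11 was the reverse. Each passed the chi-square test and neither passed the variability test. In GENCODE the starts overlap by 412 bp, and exons of the partner cover 12.2% of the exon union of Mrpl46 and 7.97% of that of Mrps11. Without a stated strand setting, reads there cannot be assigned. RefSeq, used for the promoter windows below, places the starts elsewhere, and by those starts the genes do not overlap.

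Promoter windows of 300 bases, 250 before and 50 after the annotated start, were taken from RefSeq (GRCm38.p6) for 68 of the 77 members, which gave 74 windows. No window was matched for Mrpl4, Mrpl13, Mrpl15, Mrpl19, Mrpl38, Mrpl54, Mrps28, Mrps34 and Mrps35. The windows were searched on both strands for letters typical of 5 elements, and matches may overlap. Shares are of windows, so a gene with several annotated starts counts more than once. Mrpl2, whose windows nearly coincide, thus adds the same E-box letters repeatedly, and Mrpl48 also has several windows. CCGGAAG, the core read by ETS factors, was found in 25 windows of the members (33.8%), against 17.1% of the windows of genes at 1 CPM or more and 8.86% of all windows. The palindrome of NRF1 (GCGC, any base, TGCGC), a factor known for nuclear genes of mitochondria, was in 13 windows (17.6%), against 9.76% and 4.60%. AANATGGCG, typical of YY1 at start sites, was in 10 windows (13.5%), against 4.89% and 2.38%. The TATA box letters TATAAA were in 5 windows (6.76%), against 7.21% and 13.6%, and the E-box CACGTG in 7 (9.46%), against 9.93% and 7.15%. Large subunit windows held the ETS letters in 29.8% and the NRF1 letters in 21.3%, small subunit windows in 40.7% and 11.1%. A match is a description of letters, and no binding was measured.

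The windows printed here are those of the 3 Mrps18 paralogs, of the head-to-head pair and of Mrpl17, the highest member by CPM, and they were chosen after their letters and values were seen. Each is written 5′ to 3′ on the strand of the gene, with the ETS, NRF1 and YY1 letters in capitals where they occur on either strand. The positions are chr17:46110754-46111053 (plus strand) for Mrps18a, chr17:35916391-35916690 (minus) for Mrps18b, chr5:100798509-100798808 (plus) for Mrps18c, chr7:78783040-78783339 (minus) for Mrpl46, chr7:78782881-78783180 (plus) for Mrps11 and chr7:105811038-105811337 (minus) for Mrpl17.
Mrps18a: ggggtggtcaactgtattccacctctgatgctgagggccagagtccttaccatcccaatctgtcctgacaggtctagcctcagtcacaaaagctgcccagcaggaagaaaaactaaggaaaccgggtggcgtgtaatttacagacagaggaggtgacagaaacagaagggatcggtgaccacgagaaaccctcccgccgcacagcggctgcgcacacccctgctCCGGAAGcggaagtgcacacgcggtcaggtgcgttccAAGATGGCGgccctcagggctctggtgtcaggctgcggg
Mrps18b: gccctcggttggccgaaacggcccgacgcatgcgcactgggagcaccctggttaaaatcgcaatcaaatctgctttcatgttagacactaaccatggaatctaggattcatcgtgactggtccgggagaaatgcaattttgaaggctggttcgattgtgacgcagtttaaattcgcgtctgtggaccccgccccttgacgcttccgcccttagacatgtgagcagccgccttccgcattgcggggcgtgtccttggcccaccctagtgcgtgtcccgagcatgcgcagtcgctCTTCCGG
Mrps18c: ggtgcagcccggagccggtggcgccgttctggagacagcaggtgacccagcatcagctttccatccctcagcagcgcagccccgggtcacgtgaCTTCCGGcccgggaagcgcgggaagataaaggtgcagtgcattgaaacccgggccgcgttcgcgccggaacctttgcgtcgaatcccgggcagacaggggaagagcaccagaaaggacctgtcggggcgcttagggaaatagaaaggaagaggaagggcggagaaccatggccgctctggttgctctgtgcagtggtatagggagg
Mrpl46: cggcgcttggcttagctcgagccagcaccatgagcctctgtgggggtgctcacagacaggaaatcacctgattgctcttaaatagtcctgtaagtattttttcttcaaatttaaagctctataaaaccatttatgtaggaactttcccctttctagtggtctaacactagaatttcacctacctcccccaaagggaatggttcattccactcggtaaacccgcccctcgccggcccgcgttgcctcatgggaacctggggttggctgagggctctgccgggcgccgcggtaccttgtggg
Mrps11: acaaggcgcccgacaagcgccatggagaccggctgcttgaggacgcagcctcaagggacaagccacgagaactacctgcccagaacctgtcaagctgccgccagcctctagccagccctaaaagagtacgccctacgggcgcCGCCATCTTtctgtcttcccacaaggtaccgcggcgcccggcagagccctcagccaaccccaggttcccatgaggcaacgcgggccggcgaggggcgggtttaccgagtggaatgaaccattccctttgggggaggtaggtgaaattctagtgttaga
Mrpl17: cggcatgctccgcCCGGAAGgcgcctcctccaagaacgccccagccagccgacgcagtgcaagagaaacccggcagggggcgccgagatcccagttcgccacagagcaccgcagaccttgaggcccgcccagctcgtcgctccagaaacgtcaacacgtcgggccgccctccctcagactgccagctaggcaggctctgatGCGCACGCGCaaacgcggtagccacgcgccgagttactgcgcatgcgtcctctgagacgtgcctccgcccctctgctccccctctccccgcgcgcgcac
All 3 paralog windows hold the ETS letters, in the reverse direction in Mrps18b and Mrps18c, and Mrps18a also holds the YY1 letters just after its start. Mrpl17 holds ETS and NRF1 letters. Mrps11 holds the YY1 letters in reverse, and the Mrpl46 window holds none of these letters, though the windows of this pair share bases on opposite strands.

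A further 6 proteins of the mitochondrial ribosome are encoded by genes with other names, and all 6 had at least 1 CPM. Ptcd3, a pentatricopeptide protein at the entry of messenger RNA on the small subunit, was the highest at 104, 106 and 122 CPM in libraries 1, 2 and 3. Dap3, a GTP-binding protein of the small subunit, had 38.5, 43.3 and 54.9 CPM. Both were highest in library 3. Chchd1 and Aurkaip1 of the small subunit had means of 22.5 ± 4.47 and 32.2 ± 4.71 CPM. Ict1, which releases stalled chains and is also called Mrpl58, had 13.5, 8.85 and 13.7 CPM, and Gadd45gip1 of the large subunit was the lowest at 8.04 ± 1.45 CPM. All 6 passed the chi-square test, beside 82.6% of all tested genes, and all 6 had their highest CPM in library 3, beside 32.5%.

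Other genes of mitochondrial translation had lower median levels per kilobase of exon union than the 77 ribosomal protein genes, whose median was 9.73 CPM per kilobase. With the longest coding transcript as length the medians were 15.4 CPM per kilobase for the 77 genes, 11.0 for translation factors, 7.25 for assembly factors and 10.1 for mitochondrial aminoacyl-tRNA synthetases, and with coding length they were 32.5, 23.8, 13.1 and 15.0. The order of the 77 genes above each list was the same under the 3 lengths, while on CPM, with no length, translation factors (32.2) and synthetases (28.2) had higher medians than the 77 genes (21.6). The 13 translation factors had a median of 6.12 CPM per kilobase, from Lrpprc, which stabilises mitochondrial messenger RNAs, at 112 ± 20.9 CPM to the translational activator of cytochrome oxidase Taco1 at 8.11 ± 0.707 CPM. The 24 assembly factors had a median of 4.36 CPM per kilobase, from the GTPase Noa1 at 62.6 ± 2.11 CPM to the ribosomal RNA methyltransferase Ftsj2 at 3.26 ± 0.926 CPM. The 17 mitochondrial aminoacyl-tRNA synthetases had a median of 4.33 CPM per kilobase and a lowest member, Aars2, at 8.67 ± 1.52 CPM. Lars2, listed at 11114 ± 1306 CPM, stood far above every other gene of these lists, at rank 2 of all genes, and the cause was not tested. Of the 3 lists, 9 of 13 (69.2%), 17 of 24 (70.8%) and 11 of 17 genes (64.7%) passed the chi-square test, beside 82.6% of all tested genes, and 0 passed edgeR's variability test, with 1 gene of the 3 lists at an unadjusted p under 0.05.

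The members had a lower median level than nuclear respiratory chain genes and cytosolic ribosomal protein genes, both taken by symbol. The respiratory chain list also holds Sdha, Sdhb, Sdhc and Sdhd of complex II. It further takes every symbol starting with Atp5, mostly genes of ATP synthase, among them Atp5b, the highest of the list by CPM. The 84 nuclear respiratory chain genes had a median of 22.2 CPM per kilobase, of which 79 had at least 1 CPM, and the 82 cytosolic ribosomal protein genes a median of 267 CPM per kilobase, of which 75 had at least 1 CPM. The 3 families had shifts of the same sign, with median log2 differences in library 1 of -0.26 for the members, -0.34 for the respiratory chain and -0.35 for cytosolic ribosomal proteins, and in library 3 of 0.24, 0.26 and 0.29. Of the cytosolic ribosomal protein genes with at least 1 CPM, 72 of 75 were highest in library 3, against 44 of 77 members.

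**Figure D4:**
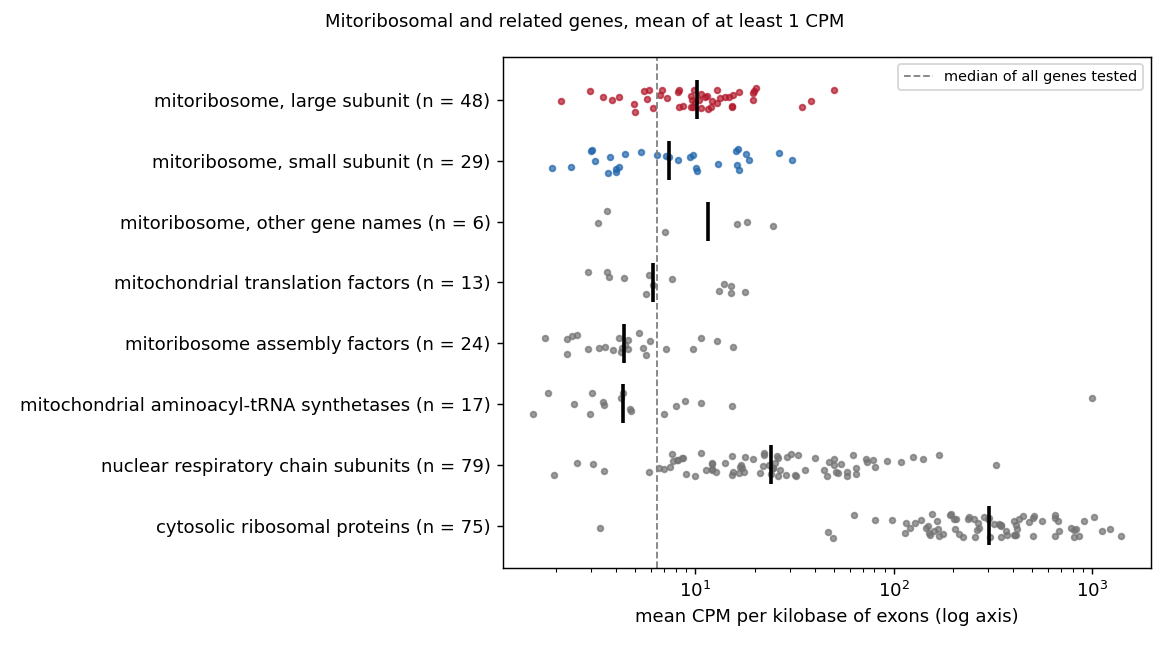
Mean CPM per kilobase of exons (log axis) of genes averaging 1 CPM or more, with 1 point per gene, a black bar at the median of each list and a dashed line at the median of all tested genes, 6.42. Of the mitochondrial ribosomal protein genes, 53 of 77 lie to the right of the dashed line, while the plotted cytosolic ribosomal protein genes centre on 301.6.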

How the data were processed

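RNA of 3 control libraries was measured by sequencing of cDNA amplified from 10 ng of total RNA, primed at poly(A) tails and at random, per the labels' protocols. The authors deposited unnormalized read counts, whole numbers for each gene symbol. TopHat2 2.0.9, HTSeq, DESeq2 and mm10 are named in the submitters' processing notes, and neither the gene model nor a strand setting is given in the sources used here. Left out of totals and tests were 92 ERCC spike-in entries (0.567, 0.325 and 0.233% of all entries in libraries 1, 2 and 3) and 5 HTSeq categories, of which reads in no gene made up 43.5, 48.4 and 42.9%. Gene counts were 38.2, 34.1 and 40.0% of entries. Reads of overlapping genes, which HTSeq may drop, lower such members, and 11 of 77 share at least 20% of their 50-base exon words with other genes.

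Counts were scaled to CPM on gene totals, and log2(CPM + 0.5) was used for differences, which makes those of low genes too small. Lengths, positions and neighbours came from GENCODE M21 (GRCm38), which matched 98.4% of symbols and all 77 members. Genes averaging 1 CPM or more were tested by chi-square (2 degrees of freedom, counting noise only) and by an F test of edgeR's quasi-dispersion over its trend (intercept only, TMM, robust), both with Benjamini-Hochberg adjustment. Both were tested on simulated data. The alternatives were TMM or DESeq2 scaling, totals without Rn45s, other pseudocounts, minima, lengths and subunit assignments, and leaving out each library.

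The members, role lists and tests were chosen with earlier results of these data known. Genes were named by rule: per subunit the 5 highest and 3 lowest by CPM, the 3 highest per kilobase and the 3 widest ranges, with the Mrps18 paralogs, Mrps30, Mrps36, the stalk genes, the 6 differently named ribosomal genes and the ends of each list. Other named members, head-to-head pairs and promoter windows were picked after their values were seen. The analysis ran in Python 3.11.15 (pandas 2.3.3, SciPy 1.17.1) and in R 4.3.3 (edgeR 4.0.16, DESeq2 1.42.0).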

Additional observations from a re-analysis of the deposited data

Results flagged for a closer look

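ERCC spike-ins, synthetic RNAs added to a sample, drew reads in all 3 libraries although no comparison uses them. They took 0.567% of all entries in library 1, 0.325% in library 2 and 0.233% in library 3. Library 1, where the mitochondrial ribosomal protein genes were lowest, had the largest spike-in share, and library 3 the smallest. The amount added per cell or per RNA is not given in the sources used here, and its relation to the members' levels was not tested.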

How the results depend on the processing

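Of 89 recalculated values, 76 kept their direction and stayed within a set spread or, for counts, within 1.5 times. For the members' shifts that spread was 0.253, the SD of the shifts of the 3 libraries themselves and not a replicate spread. It is about as large as the shifts of -0.26 in library 1 and 0.24 in library 3. Staying within it thus says little beyond the direction of a shift. Alternatives that kept all members, or those of at least 1 CPM, left the same genes and could not move a value. The share of gene counts was 0.219% with Rn45s out of the totals and 0.177% over members with few shared words, and it ran between 0.190 and 0.209% without 1 library. The large minus small log2 difference per kilobase was 0.38 by place in the ribosome and 0.022 with the longest coding transcript as length, where the call of a higher large subunit ended, and between 0.50 and 0.65 without 1 library. On CPM it ran between 0.08 and 0.31 without 1 library. The chi-square count of members was 36 (46.8%) without library 1, beside 51.1% of all tested genes, 61 (79.2%) without library 2, beside 67.2%, and 52 (67.5%) without library 3, beside 64.2%, so its relation to the background turned with the library left out. It was 65 with TMM totals, an alternative added after the data were seen. Added likewise were other lengths for the Mrps18 paralogs and the lists of mitochondrial translation, under which 0 differences changed sign and 7 of 10 moved by more than their spread. The members' shift in library 2 was -0.11 without library 1 and 0.21 without library 3, so its direction depends on which libraries it is set against. That of library 1 ran between -0.28 and -0.21, and that of library 3 between 0.11 and 0.28, on such pairs, also added after the data were seen. Under every edgeR setting 0 members passed the variability test, with 1 to 4 at an unadjusted p of 0.05. At a minimum of 5 CPM, 76 members remained. No paired analysis was possible because there is only 1 group of samples. Every member stood far above the detection floor, as the lowest had 129 counts in a library. Depth still bears on the chi-square test, which calls a like spread less readily at lower counts.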
